A study of Mus musculus with 12 samples.

Results

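Il10 and 4 transcription factor genes known to raise its expression in T cells (Prdm1, Maf, Ahr and Nfil3) were followed in CD4 T cells of infected spleen. They are 5 of the 55401 genes in the deposited files, chosen by name, and all 5 passed the filter on low counts. The study sorted a pair of CD4 T cell populations from the spleens of C57BL/6 animals that had carried Leishmania donovani, a parasite of macrophages, for 21 days (day 21 after infection). TLCPlo/int cells carry LAG-3 and CXCR5 with low to intermediate PD-1. Tfh cells carry CXCR5 with high PD-1 and are described by the submitters as mostly germinal center cells. There are 6 libraries of each, and the series description gives 6 mice. Both populations come from infected animals with no genotype other than the strain in the labels, so neither group is an uninfected control, and no age is given. Each library is bulk RNA of many sorted cells, in which fewer cells of a type and less RNA per cell cannot be told apart.

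Interleukin-10 is a secreted cytokine that binds the receptor chains IL-10RA and IL-10RB, acts through JAK1, TYK2 and STAT3, and restrains macrophages and T cell effector responses. In CD4 T cells it is made by regulatory T cells, by type 1 regulatory (Tr1) cells and by Th1 cells during chronic infection, and in visceral leishmaniasis it limits both tissue damage and parasite killing. Prdm1 encodes Blimp-1, a zinc finger repressor active in effector T cells and plasma cells that also promotes Il10 in T cells. Maf encodes c-Maf, a bZIP factor that binds the Il10 promoter and also drives Il4 and Il21 in helper cells. Ahr encodes the aryl hydrocarbon receptor, a ligand-gated factor that pairs with ARNT and works with c-Maf in Tr1 cells. Nfil3 encodes a bZIP repressor and activator, also called E4BP4, that is needed for Il10 in several helper subsets.

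Each library held 6939770 to 12688306 reads assigned to genes, and 3 reads in a library are worth 0.236 to 0.432 CPM, the count relative to library size. The labels were checked on the genes of the sort. Lag3 was at 140.1 to 234 CPM in TLCPlo/int cells and 28.9 to 58.6 in Tfh cells, Pdcd1 at 32.5 to 44.3 against 266.0 to 346, and Cxcr5 at 217 to 353 against 728 to 965. The CD4 T cell genes Cd4 (666 to 779 CPM against 890.2 to 1016), Cd3e (471 to 552 against 492 to 541) and Trac (528 to 722 against 913 to 1061) were present in every library. Transcripts of other cells were also present, and more so in TLCPlo/int cells. Summed plasma cell markers reached 722 to 3522 CPM against 109 to 285, and summed B cell markers 4761 to 23770 against 1182 to 2054.

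Il10, Prdm1 and Ahr were higher in TLCPlo/int cells in 6 of 6 same-numbered pairs, by 28.9-fold, 6.21-fold and 3.17-fold, and their 2 groups of libraries did not overlap. For Maf and Nfil3 the groups overlapped and the difference did not pass the test. How many of all genes had groups without overlap was not counted, so the separation only describes these genes. The test was edgeR's quasi-likelihood test across 12015 genes with Benjamini-Hochberg adjustment, and a gene is called where its adjusted p is under 0.05. So 3 of the 5 genes were called, all 3 higher. Of all genes tested 33.2% were called, 16.8% higher and 16.4% lower in TLCPlo/int cells, so a call is in itself common in this comparison. That balance of 2014 higher and 1969 lower genes rests on the scaling. With scaling by library totals alone it became 3207 higher and 893 lower, and on TPM values (transcript levels corrected for gene length) 3180 and 473. By size of rise, Il10 ranked 11 of the 12015 genes, Prdm1 157 and Ahr 481.

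**Figure D1:**
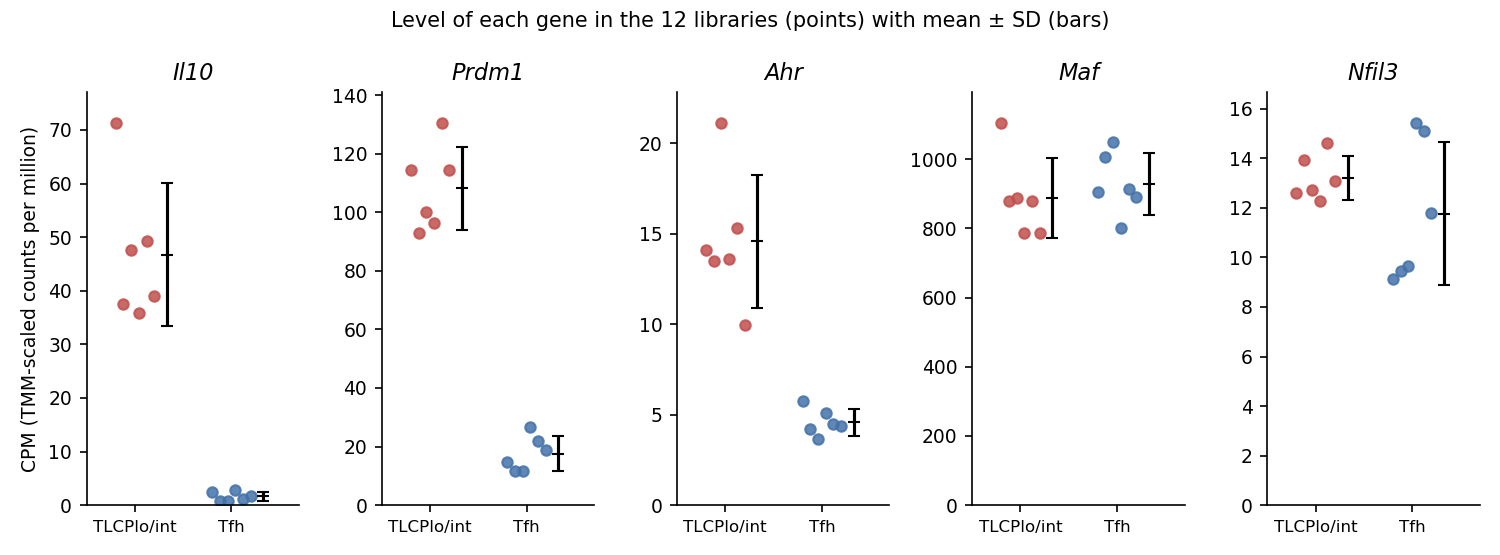
Level in CPM of each of the 5 genes in every library, 1 point per library, and the group mean with its SD as a bar beside the points (n = 6 per group). The 6 TLCPlo/int libraries lie above all 6 Tfh libraries for Il10 (35.9 to 71.4 against 0.788 to 2.87), Prdm1 and Ahr, while the groups overlap for Maf and Nfil3.

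Il10 (ENSMUSG00000016529.5, chromosome 1, 131019845 to 131024974, plus strand, GRCm38) was at 35.9 CPM in the lowest, a median of 43.2 and 71.4 in the highest TLCPlo/int library. In Tfh cells it was at 0.788 in the lowest, a median of 1.46 and 2.87 in the highest library. The lowest TLCPlo/int library was 12.5-fold above its same-numbered Tfh library, in pair 4, and the largest ratio was 60.4, in pair 3. Means were 46.8 ± 13.3 CPM (SD, n = 6) and 1.63 ± 0.848 CPM (SD, n = 6). The log2 fold change, always TLCPlo/int minus Tfh here, was 4.85 (SE 0.28, edgeR adjusted p = 1.33e-08). Il10 reads were few but present in every Tfh library, 7 to 27 per library against 345 to 713 in TLCPlo/int cells. Within a group the highest library was 3.64-fold above the lowest in Tfh cells and 1.99-fold in TLCPlo/int cells. No other gene overlaps Il10 in the annotation (GENCODE M21), and reads on its opposite strand were 1.63% of those on both strands.

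Prdm1 (ENSMUSG00000038151.13, chromosome 10, 44437177 to 44528501, minus strand, GRCm38) followed Il10 in direction. Its lowest, median and highest levels were 92.9, 107 and 131 CPM in TLCPlo/int cells and 11.6, 16.7 and 26.8 CPM in Tfh cells. Every TLCPlo/int library was thus more than 3 times the highest Tfh library, and same-numbered pairs differed by 3.60 to 8.48-fold. The means were 108 ± 14.3 against 17.6 ± 6.04 CPM (SD, n = 6 each), and the rise was 2.63 on the log2 scale (SE 0.20, edgeR adjusted p = 5.03e-07). The 3 highest Tfh libraries were replicates 4, 5 and 6, at 18.8 to 26.8 CPM, and replicates 1, 2 and 3 were at 11.6 to 14.6.

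Prdm1 is also a gene whose promoter can be read for the factors beside it, and its sequence is shown for that reason. Of the 5 genes, Prdm1 and Nfil3 matched an entry in the RefSeq promoter table (GRCm38.p6), and Il10, Maf and Ahr did not. The 250 bases before the RefSeq transcript start of Prdm1 lie at chr10:44458749-44458998 on the minus strand. This start is internal to the GENCODE gene, 69.8 kb from its 5′ end, so the window lies within the gene span given above. They are given 5′ to 3′, with the reverse complement of the AHR core motif GCGTG in capitals.

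Prdm1, 250 bases before the start: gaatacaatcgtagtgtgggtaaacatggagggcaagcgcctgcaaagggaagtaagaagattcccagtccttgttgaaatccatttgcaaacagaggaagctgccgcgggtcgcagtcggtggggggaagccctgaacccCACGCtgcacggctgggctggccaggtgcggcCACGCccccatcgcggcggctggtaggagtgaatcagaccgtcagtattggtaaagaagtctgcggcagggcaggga

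The AHR core occurred at 2 places, at -109 to -105 and at -77 to -73 from the start, both on the reverse strand. The same 5 letters occurred on either strand in 28.2% of the 32851 promoter windows of this length, so a match is common. The other motifs searched on both strands, with their share of all windows, were the MAF half-site TGCTGA (16.1%), the Blimp-1 core GAAAGT (12.3%), the NFIL3 element TTANGTAA (2.06%) and the STAT element TTCNNNGAA (7.02%). These letters were not in the Prdm1 window, and none of the 5 motifs was in the window of Nfil3. No binding was measured here, so the matches describe letters only.

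Ahr (ENSMUSG00000019256.17, chromosome 12, 35497974 to 35535038, minus strand, GRCm38) rose from a low level. Its lowest, median and highest levels were 9.94, 13.8 and 21.1 CPM in TLCPlo/int cells and 3.64, 4.42 and 5.75 CPM in Tfh cells. The lowest TLCPlo/int library, replicate 6, was 2.27-fold above its pair, and replicate 3, the highest, 5.80-fold. Means were 14.6 ± 3.68 and 4.59 ± 0.739 CPM (SD, n = 6 each), and Ahr rose by 1.67 on the log2 scale (SE 0.19, edgeR adjusted p = 1.13e-06). These levels rest on 110 to 176 reads per TLCPlo/int library and 32 to 65 per Tfh library. The unnamed model Gm48236 overlaps Ahr on the other strand, where reads were 1.17% of those on both strands.

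Maf (ENSMUSG00000055435.6, chromosome 8, 115682942 to 115707794, minus strand, GRCm38) was the most abundant of the 5 genes in both populations, and its level hardly separated them. It was at 786, 880 and 1106 CPM (lowest, median, highest) in TLCPlo/int cells and at 801, 910 and 1051 CPM in Tfh cells. The ranges lay almost on top of each other, and Maf was lower in TLCPlo/int cells in 5 of 6 pairs, with ratios of 0.846 to 1.22. Means were 888 ± 117 and 928 ± 89.0 CPM (SD, n = 6 each). The log2 fold change was -0.06 (SE 0.08, edgeR adjusted p = 0.592), and it was 0.11 with library totals alone and 0.22 on TPM values, so its sign depends on the scaling. The median log2 fold change over all genes moved from -0.004 to 0.17 and 0.25 under those settings. Relative to that median Maf was at -0.06, -0.06 and -0.03 on the 3 scales. The pair with a ratio above 1 was number 1, whose TLCPlo/int library had the highest Maf and also the highest Il10. Gm15655 overlaps Maf on the opposite strand, where reads were 2.04% of those on both strands.

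Nfil3 (ENSMUSG00000056749.7, chromosome 13, 52967209 to 52981073, minus strand, GRCm38) was close in both populations. Its lowest, median and highest levels were 12.3, 12.9 and 14.6 CPM in TLCPlo/int cells and 9.12, 10.7 and 15.4 CPM in Tfh cells. The 6 TLCPlo/int libraries varied by only 1.19-fold, and the Tfh libraries, which varied more, lay on both sides of them. Means were 13.2 ± 0.899 and 11.8 ± 2.89 CPM (SD, n = 6 each), and the log2 difference was 0.17 (SE 0.16, edgeR adjusted p = 0.424). On log2(TPM + 1) values, where the median of all genes was itself at 0.25, limma gave 0.45 (adjusted p = 0.0117) and called Nfil3 higher in TLCPlo/int cells, so the count of called genes became 4.

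The Nfil3 pairs divided by number. In pairs 1, 2 and 3 the TLCPlo/int library was 1.32 to 1.47-fold above its Tfh library, and in pairs 4, 5 and 6 the ratios were 0.794, 0.967 and 1.11. With replicates 1 to 3 alone the log2 fold change was 0.48 (edgeR adjusted p = 0.0571), and with replicates 4 to 6 alone -0.09 (adjusted p = 0.80). No label says what the numbers stand for, and the difference between the 2 sets was not tested. Il10, Prdm1 and Ahr were called in both sets. Il10 gave 5.21 in replicates 1 to 3 and 4.46 in replicates 4 to 6, Prdm1 3.01 and 2.34, and Ahr 1.83 and 1.47. In each of these the log2 fold change was larger in replicates 1 to 3, whereas Maf stayed at -0.04 and -0.10.

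**Figure D2:**
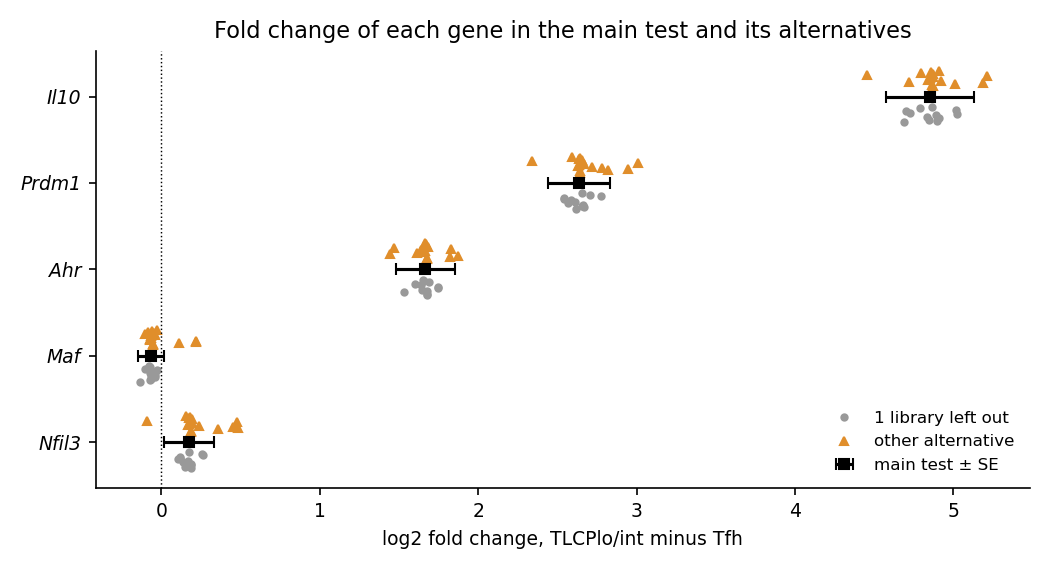
Log2 fold change (TLCPlo/int minus Tfh) of the 5 genes as a black square with a bar of 1 SE, grey points where 1 library was left out, and orange triangles for the other alternatives. Il10 (4.85), Prdm1 (2.63) and Ahr (1.67) lie to the right of 0 in all of them, and Maf and Nfil3 have values on both sides of 0.

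The authors' deposited table gave nearly equal log2 fold changes, 4.87 for Il10, 2.64 for Prdm1, 1.68 for Ahr, -0.05 for Maf and 0.19 for Nfil3. In the authors' deposited table the adjusted p was 0.721 for Maf and 0.445 for Nfil3. It starts from the same counts and is not a separate measurement.

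Levels of different genes were set side by side in the authors' TPM values, which are per length. In TLCPlo/int cells the order of mean TPM was Maf (282), Il10 (93.7), Prdm1 (51.0), Nfil3 (17.1) and Ahr (6.10), and no neighbours in it overlapped across the 6 libraries. In Tfh cells it was Maf (244), Nfil3 (12.2), Prdm1 (6.63), Il10 (2.72) and Ahr (1.62). There the ranges of Prdm1 and Il10 overlapped, although Prdm1 was higher in 6 of 6 libraries, and Il10 was above Ahr in 5 of 6. Il10 thus stood just below Maf in TLCPlo/int cells and just above Ahr in Tfh cells. Among all genes ordered by TPM within a library, Il10 was at rank 505 to 1332 in TLCPlo/int cells and 9002 to 11959 in Tfh cells. Maf was at rank 150 to 279 and 156 to 230.

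**Figure D3:**
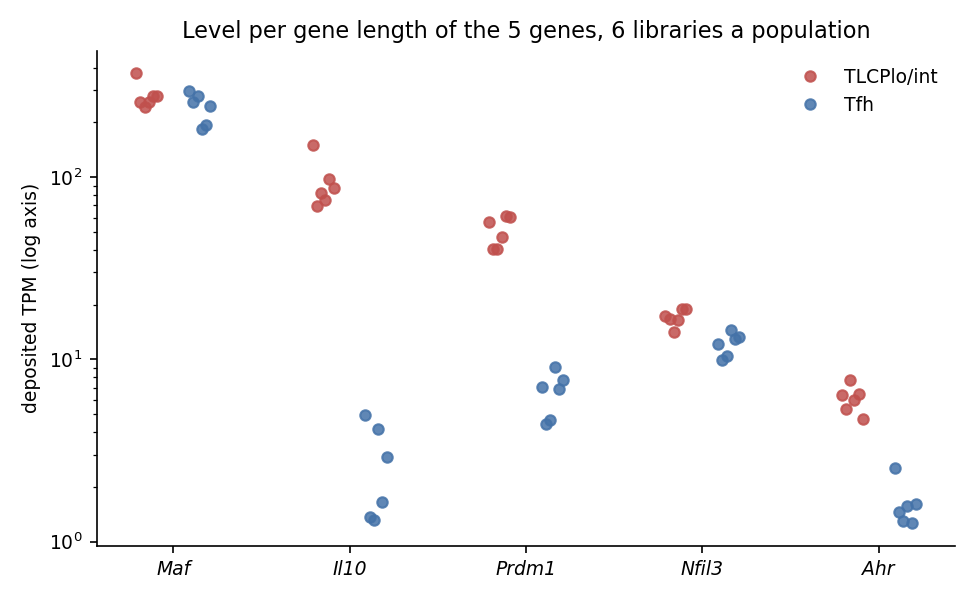
TPM of the 5 genes in each library on a log axis, with the 6 TLCPlo/int and the 6 Tfh libraries apart. Maf is highest in both (means 282 and 244), and Il10 moves from a mean of 93.7 TPM to 2.72.

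The same difference can be given as the amount of Il10 RNA per unit of each factor's RNA. The ratio of Il10 to Maf TPM was 0.268 to 0.406 in TLCPlo/int libraries and 0.00472 to 0.0225 in Tfh libraries. For Prdm1, which rose itself, the ratio was 1.45 to 2.66 against 0.241 to 0.697, and for Ahr 10.6 to 23.8 against 0.941 to 2.65. For Nfil3 it was 4.17 to 8.75 against 0.126 to 0.405. None of the 4 ratios overlapped between the groups. All 4 share Il10, whose fold change was larger than that of each factor. They therefore restate that difference and are not 4 further results.

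Within the groups, Prdm1 and Ahr tended to be higher where Il10 was higher, and of the 4 relations only the rank correlation of Ahr passed after adjustment. The measure was the correlation of log2(CPM + 0.5) after the group mean was taken out, over 12 libraries that share depth and composition, with permutation p within groups adjusted over 4 relations. Prdm1 gave r = 0.64 (adjusted permutation p = 0.151) and rho = 0.657 (adjusted permutation p = 0.122), and r = 0.476 without the 2 libraries farthest from the median of Il10. Ahr gave r = 0.526 (adjusted permutation p = 0.151) and rho = 0.748 (adjusted permutation p = 0.0379), and r = 0.631 without 2 libraries. These p-values treat libraries as independent within a group. With same-numbered libraries moved together, the rank correlation of Ahr had an exact permutation p of 0.0111 (adjusted p = 0.0444). By population, rho of Ahr was 0.886 in Tfh cells, on 7 to 27 Il10 reads per library, and 0.543 in TLCPlo/int cells. The TLCPlo/int rho had an exact permutation p of 0.297 (0.396 adjusted over 8 relations). There r was 0.309 (exact permutation p = 0.536, adjusted 0.613), and 0.718 without 2 libraries. Nfil3 gave r = 0.313 (adjusted permutation p = 0.554) and rho = 0.364 (adjusted permutation p = 0.426), and r = 0.07 without 2 libraries. Maf gave r = -0.078 (adjusted permutation p = 0.802) and rho = -0.266 (adjusted permutation p = 0.426), and -0.379 without 2 libraries.

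For Maf this value near 0 joined opposite slopes. Over the 6 TLCPlo/int libraries r was 0.924 (exact permutation p = 0.0264, 0.0704 adjusted over 8 relations) and rho 0.714 (exact permutation p = 0.136, adjusted 0.272), and r fell to 0.505 without 2 libraries. Over the 6 Tfh libraries r was -0.915 (exact permutation p = 0.00972, adjusted 0.0704) and rho -0.943 (exact permutation p = 0.0167, adjusted 0.133), and r was -0.798 without 2 libraries. None of the 8 relations within a group passed after adjustment, the next being Ahr in Tfh cells with r = 0.876 (exact permutation p = 0.0208, adjusted 0.0704) and rho = 0.886 (exact permutation p = 0.0333, adjusted 0.133), and r = 0.864 without 2 libraries. The difference between the 2 groups in the slope of Maf was not tested.

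The IL-10 receptor and its signalling genes were next. Of 6 genes tested, 3 rose and 1 fell, with a median log2 fold change of 0.42, beside 33.2% called and a median of -0.004 over all genes. Il10ra, the chain that binds the cytokine, rose by 1.33 (79.2 to 118 CPM against 28.1 to 47.8, edgeR adjusted p = 7.53e-06). Socs3, a feedback inhibitor of cytokine signalling, rose by 1.29 (75.6 to 96.8 against 25.4 to 44.3 CPM, adjusted p = 1.62e-07). The kinase gene Tyk2 rose by 0.65 (edgeR adjusted p = 0.000167). Jak1 fell by 0.18 on the log2 scale (adjusted p = 0.0163), but was at 0.11 on TPM values. Il10rb, the shared chain, was at 31.1 to 35.2 against 27.0 to 31.0 CPM and did not pass.

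Receptors upstream of Il10, a list of cytokine receptor chains and the costimulatory receptor Icos, moved both ways, with 7 of 14 higher, 4 lower and a median of 0.20. Il2ra, the high-affinity IL-2 receptor chain, rose by 2.43 (104 to 123 against 14.0 to 31.4 CPM, edgeR adjusted p = 3.38e-07), and Il12rb2, the signalling chain for IL-12, by 1.80 (58.0 to 167 against 21.5 to 40.7 CPM, adjusted p = 0.00103). Il27ra, the receptor chain for IL-27, rose by 0.45 (149.8 to 176 against 111 to 142 CPM, edgeR adjusted p = 6.97e-05). The 4 that fell were Il6st, the shared signalling chain for IL-6 and IL-27, by 1.01 on the log2 scale, Il6ra by 0.64, Ifnar2 by 0.49 and Tgfbr2 by 0.27. On TPM values Il6ra and Ifnar2 no longer passed, and Tgfbr2 was at 0.01.

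Of 20 other transcription factor genes whose products are reported to bind or induce Il10 in T cells, 4 rose and 10 fell, with a median of -0.15. With totals alone 6 fell, and on TPM values 4 did. Among the 4 that rose were Eomes by 2.10 (8.76 to 25.8 against 2.85 to 6.21 CPM) and Tbx21 by 1.61 (48.7 to 99.6 against 14.3 to 28.5 CPM), both T-box factors of effector cells, and Irf4 by 1.04 (146 to 183 against 67.2 to 88.7 CPM). Among the genes that fell, Hif1a, the hypoxia factor, was at 486 to 609 against 1270 to 1661 CPM, and its log2 fold change was -1.32 (edgeR adjusted p = 2.70e-10). Egr2, an early growth response factor induced through the T cell receptor, fell by 1.16 (23.5 to 33.9 against 56.6 to 70.5 CPM, edgeR adjusted p = 4.96e-08). Batf, the AP-1 partner of IRF4, fell by 0.66 (42.2 to 52.3 against 62.5 to 88.5 CPM). The 2 partners Irf4 and Batf thus moved in opposite directions.

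Of 4 genes known to restrain Il10, 2 rose and 1 fell. Bach2, a repressor of effector differentiation, rose by 1.73 (56.6 to 95.9 against 16.6 to 33.6 CPM, edgeR adjusted p = 3.47e-06). Bhlhe40, a repressor of Il10 in Th1 cells, rose by 1.33 (74.7 to 232 against 30.1 to 98.9 CPM, adjusted p = 0.0287), and it did not pass without TLCPlo/int replicate 5 or 6 or without Tfh replicate 1, 2 or 3 (adjusted p = 0.0559 to 0.0626). Ets1 fell by 0.30 (adjusted p = 0.000678), which no longer passed with totals alone (adjusted p = 0.277).

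The AHR pathway itself gave no call while Ahr rose. Of 11 genes 6 were tested and none passed edgeR's test after adjustment, with a median of -0.06, and 1 of the 6 had an unadjusted p under 0.05 (Hsp90aa1). DESeq2 and limma voom also called 0. Hsp90aa1, part of the cytoplasmic AHR complex, was at 0.20 (adjusted p = 0.0669), and Ptges3, its co-chaperone p23, at -0.20 (adjusted p = 0.145) and at 0.08 on TPM values. Tiparp, an AHR target that feeds back on it, was at 29.9 to 41.7 against 27.0 to 31.9 CPM, a log2 fold change of 0.18 (adjusted p = 0.152), and passed with totals alone (0.36, adjusted p = 0.019). The targets Cyp1a2 and Cyp1b1 had no read in any of the 12 libraries. Cyp1a1, the classical target, was at 0 to 1.26 against 0 to 1.43 CPM and below the filter. With totals alone and on TPM values 2 of the 6 were called higher, and 1 was called with a replicate block, with a stricter filter, in replicates 4 to 6 alone or without TLCPlo/int replicate 1 or 3.

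Genes that Blimp-1 is known to repress were divided. Of 9, 8 were tested, and 5 rose and 3 fell, with a median of 1.15. Those that fell were Bcl6, the factor of the Tfh programme that opposes Blimp-1 (39.6 to 69.0 against 189 to 273 CPM, log2 fold change -2.17, edgeR adjusted p = 9.58e-08), Id3 (fell by 1.72) and Tcf7 (fell by 1.22), which encodes TCF-1. Among those that rose were the homing gene Ccr7 (1.53, 34.6 to 61.6 against 14.5 to 26.4 CPM), Il7r (1.41), Bach2 (1.73) and Myc (0.89). Thus the genes of this list that fell were those of the Tfh and memory programme, and the genes that rose included markers of naive and central memory cells, alongside the rise of Prdm1.

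In the coinhibitory receptor genes linked to Prdm1 and Maf together, 3 of 5 were tested, of which 2 rose and 1 fell. Havcr2, which encodes TIM-3, rose by 2.86 (6.01 to 31.2 against 0.689 to 3.60 CPM, edgeR adjusted p = 0.00234), and Ctla4 by 0.78. Tigit was at -0.23 (edgeR adjusted p = 0.0246) and at 0.05 on TPM values, and it did not pass without TLCPlo/int replicate 2 (adjusted p = 0.0542) or without Tfh replicate 1 (adjusted p = 0.0552). The helper genes that c-Maf activates went the other way, with 2 of 3 lower. Il4 was nearly absent from TLCPlo/int cells (0.0903 to 1.20 against 11.1 to 26.0 CPM), and its log2 fold change was -4.89 (edgeR adjusted p = 2.39e-07). Il21 was at 130 to 233 against 223 to 334 CPM and fell by 0.67 (adjusted p = 0.0012), which did not pass on TPM values (-0.38, adjusted p = 0.0969). With overlapping Maf levels, then, Il10 was higher and Il4 lower in TLCPlo/int cells. Of 6 relatives of Maf 3 were tested and Mafg, a small MAF protein gene, fell by 0.57 (28.7 to 49.4 against 49.8 to 71.2 CPM, edgeR adjusted p = 0.00114), a call lost on TPM values (adjusted p = 0.205).

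**Figure D4:**
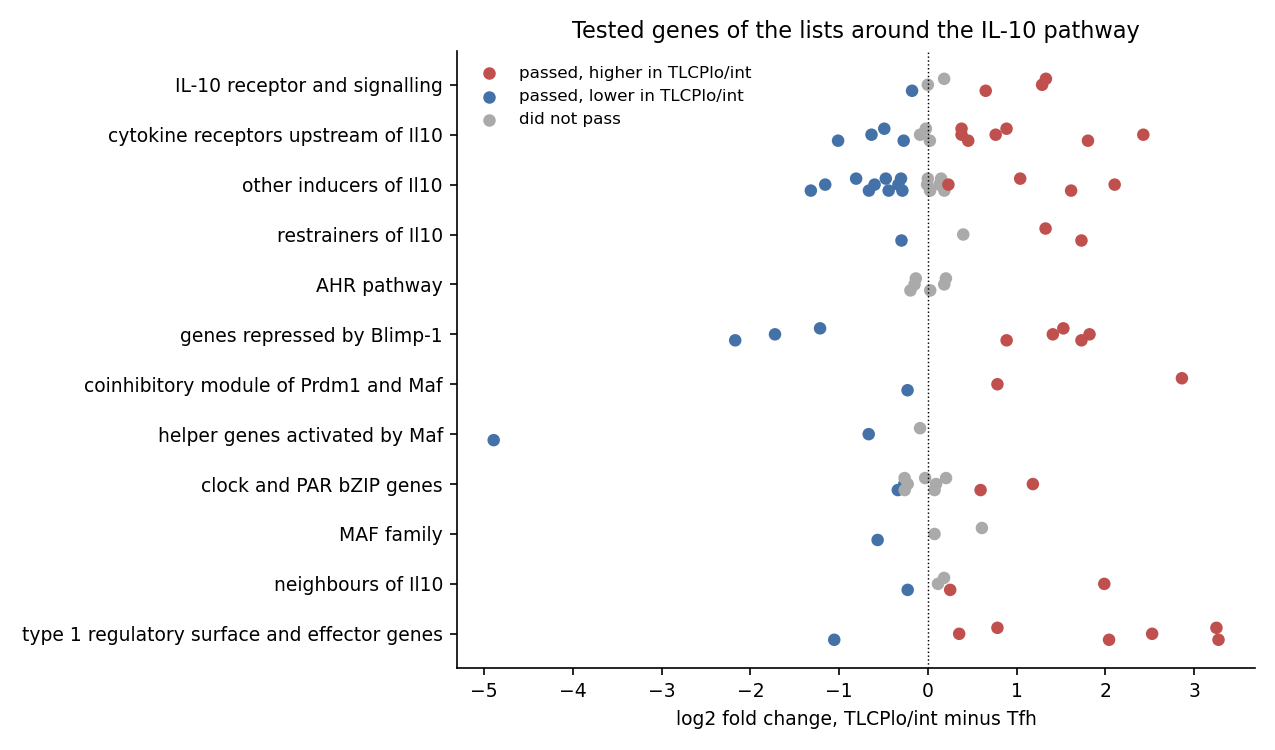
Log2 fold change (TLCPlo/int minus Tfh) of the tested genes of 12 lists around the IL-10 pathway, 1 point per gene, in red or blue where the gene passed. All 6 genes of the AHR pathway lie near 0, and the Il4 point (-4.89) is the lowest shown.

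Genes on either side of Il10 on chromosome 1 differed less between the populations than Il10 did. The related cytokine genes Il19, Il20 and Il24, 79.7 to 132 kb before its start, had no read in any library. Mapkapk2, the nearest tested neighbour at 28.7 kb after the end of Il10, differed by 0.25 (73.7 to 98.0 against 63.1 to 85.2 CPM, edgeR adjusted p = 0.028), and it did not pass without TLCPlo/int replicate 2, 5 or 6 or without Tfh replicate 1 or 3 (adjusted p = 0.0548 to 0.0845). Fcmr, the Fc receptor for IgM and a B cell gene, rose by 1.99 (39.8 to 188 against 8.59 to 43.0 CPM, adjusted p = 0.00699). That call was lost in replicates 1 to 3 alone (edgeR adjusted p = 0.0653) and in replicates 4 to 6 alone (adjusted p = 0.0972). Rassf5, 151 kb after Il10, was at -0.23 (adjusted p = 0.0196) and at 0.05 on TPM values. So of 5 tested neighbours 2 were higher and 1 lower, and their log2 fold changes ran up to 1.99 against 4.85 for Il10.

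Surface and effector genes linked to Tr1 cells mostly rose with Il10, 6 of 7 against 1 that fell, with a median of 2.04. Gzmb, which encodes granzyme B, rose by 3.25 (38.9 to 83.7 against 1.77 to 12.4 CPM, edgeR adjusted p = 0.000314). Entpd1, which encodes the ectonucleotidase CD39, rose by 2.53 (44.6 to 80.3 against 4.23 to 14.6 CPM), and Itga2, which encodes CD49b, by 2.04. Nt5e, which encodes CD73 and acts after CD39, fell by 1.06 (103 to 173 against 253 to 326 CPM, edgeR adjusted p = 3.16e-07). Cd226 rose by 0.35 (adjusted p = 0.0406), and it did not pass without TLCPlo/int replicate 2, 4, 5 or 6 or without Tfh replicate 1, 2, 3 or 5 (adjusted p = 0.0539 to 0.104).

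Several cell types other than Tr1 cells express Il10 or Prdm1, so their markers were read beside these genes. Of 5 regulatory T cell markers 3 rose and 1 fell. Foxp3 was at 73.9 to 95.9 against 25.2 to 47.3 CPM, a rise of 1.38 (edgeR adjusted p = 1.54e-07), Il1rl1 rose by 1.78 (adjusted p = 0.0276, but 0.0544 to 0.0599 without TLCPlo/int replicate 5 or 6 or Tfh replicate 1 or 2), and Ikzf2, which encodes Helios, fell by 0.79 on the log2 scale. Of 8 plasma cell markers 7 were tested and all 7 rose, and of 9 B cell markers 7 rose and none fell. Plasma cells are rich in Prdm1, and some B cells and plasma cells make Il10. Basophil and mast cell markers summed to 27.0 to 99.6 CPM in TLCPlo/int cells and 0.239 to 7.17 in Tfh cells, and all 5 tested rose. Myeloid markers summed to 29.7 to 109 and 17.8 to 80.7 CPM, and none of the 3 tested passed. Of 3 tested CD8 and NK markers, Klrb1c fell. No plasma or B cell marker was at 0 throughout a group, and Sdc1, which encodes the plasma cell marker CD138, was at 4.13 to 19.0 against 0 to 1.27 CPM.

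Among the TLCPlo/int libraries some of these transcripts had wider ranges than Il10 or its factors, and others did not. Jchain, the joining chain gene of plasma cells, ran from 550.1 to 3012 CPM, a 5.48-fold range, and Ighm had a 6.11-fold and the basophil protease gene Mcpt8 a 4.37-fold range. Il10 had a 1.99-fold, Prdm1 a 1.41-fold, Ahr a 2.13-fold and Foxp3 a 1.297-fold range. The library with the most Jchain, replicate 5, had the highest Prdm1 (131 CPM) and an Il10 level of 49.3 CPM. The library with the least, replicate 2, had 92.9 CPM of Prdm1, the lowest, and 37.5 CPM of Il10. The libraries between them did not keep that order. Replicate 4, next to the most in Jchain (2034 CPM), had 96.3 CPM of Prdm1 and the lowest Il10 (35.9 CPM), and replicate 1, with the highest Il10 (71.4 CPM), had 1530.0 CPM of Jchain. Without the 2 TLCPlo/int libraries with the most immunoglobulin counts, replicates 4 and 5, the log2 fold changes were 4.91 for Il10, 2.59 for Prdm1 and 1.67 for Ahr, all called. The TLCPlo/int libraries kept still held 0.731% to 1.88% immunoglobulin counts, against 0.11% to 0.384% in Tfh libraries. That setting therefore did not remove the difference in these transcripts between the groups. How much of the Il10 and Prdm1 signal came from non-T cells in the sorted samples was not tested.

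**Figure D5:**
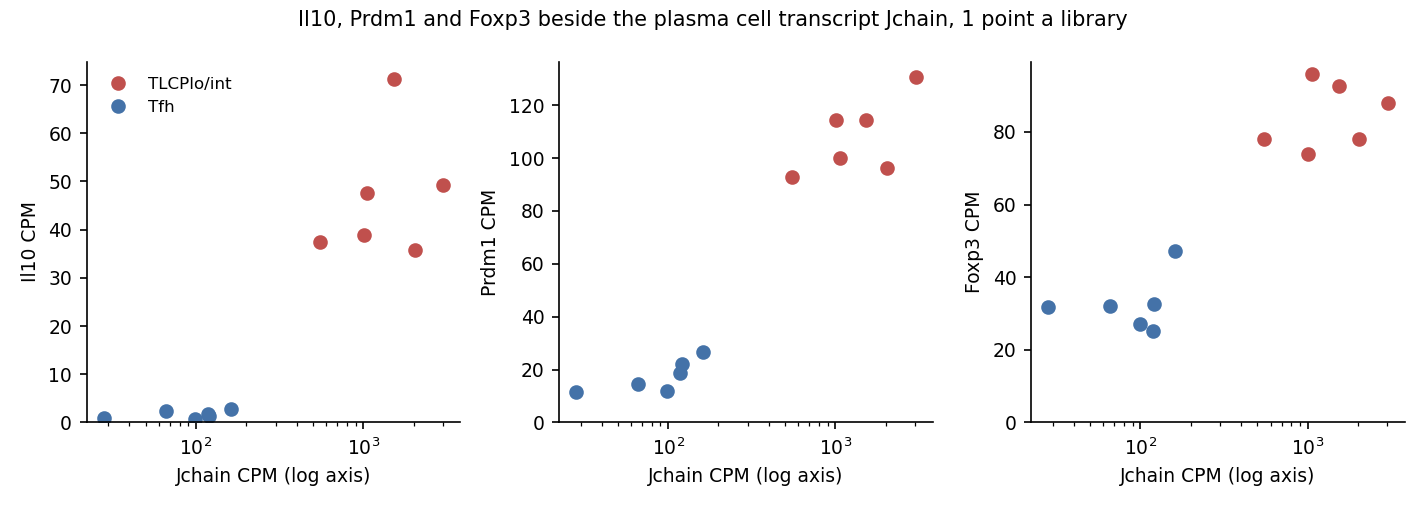
Il10, Prdm1 and Foxp3 in CPM against Jchain in CPM (log axis), 1 point per library. Over the 6 TLCPlo/int libraries Jchain spans 5.48-fold, Il10 1.99-fold, Prdm1 1.41-fold and Foxp3 1.297-fold.

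The genes most like each of the 5 were found by Pearson r of log2(CPM + 0.5) over the 12 libraries, among 7831 other genes at a mean of 10 CPM or more (7832 for Ahr). As the groups are far apart, a high r mostly reflects a gene that separates them, and r is given as a description. For Il10 the 5 highest were S1pr1 (0.991), which encodes a receptor for exit from lymphoid tissue, Tmem154 (0.991), Adam19 (0.984), Prdm1 (0.982) and Il2ra (0.982). Of the 4 factors, Prdm1 was therefore among the 5 genes most similar to Il10. Prdm1 was most like Fgl2 (0.996), a gene for a suppressive secreted protein, and Lag3 (0.994), which was used in the sort. Ahr was most like Uba7 (0.976) and Foxn3 (0.975). For the genes that did not separate the groups the closest were Pip4k2a (0.856) and Icos (0.847) for Maf, and Tex2 (0.945) and Frmd6 (0.926) for Nfil3. With group means removed, Tprkb (0.92), Klhdc2 (0.839) and Tmem50a (0.834) were most like Il10.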

How the data were processed

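Bulk RNA was sequenced from 6 TLCPlo/int and 6 Tfh libraries of mouse spleen. Magnetic enrichment of CD4 T cells, flow sorting and poly(A)-selected libraries are described, per the labels' protocols. STAR 2.7.1a, bcl2fastq 2.20 and DESeq2 1.30.1 with the GRCm38 build are named, per the submitters' processing notes. The sources used here do not state the annotation release. The authors deposited raw read counts per gene, of which the stranded column was used. Classes that name no gene held 44.9% to 56.4% of the reads and were left out. The authors also deposited TPM values, log2 fold changes with p-values, a Wald score that was not used here, and a normalized signal per library. Whole reads were recovered from 100% of that signal (tolerance 0.01 reads).

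Counts were tested with edgeR 4.0.16 in R 4.3.3 (filterByExpr, TMM, robust quasi-likelihood test, 2-sided, Benjamini-Hochberg over 12015 genes, threshold 0.05). SE is the absolute log2 fold change over the square root of F. CPM are TMM-scaled. In data simulated for this comparison (11830 genes tested, 200 changed), the test called 78% of genes raised 2-fold, 100% raised 4-fold and 0.0687% of unchanged genes. DESeq2 1.42.0, limma 3.58.1 on voom weights or log2 TPM, other scalings and filters, unstranded counts, a replicate block and left-out libraries were alternatives. The refit on recovered reads was chosen after seeing the data and called 3983 genes.

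The 5 genes, the lists and the tests were chosen with earlier results of these data known. From each list the text names the genes called with at least a 2-fold change, or else the 2 with the smallest p, at most 4 by p. Some list members are counted but not reported here by name. Il27ra, Il6ra, Ifnar2, Tgfbr2, Il21, Tiparp, Tbx21, Batf, Ets1, Tcf7, Myc, Il7r, Jak1, Tyk2, Ctla4, Tigit, Cry1, Nr1d2, Arntl, Mapkapk2, Rassf5, Itga2, Cd226 and Ikzf2 were named after their values were seen, as were the permutation p-values of the relations with Il10. Positions are from GENCODE M21. With group means removed, same-numbered libraries correlated at 0.15 to 0.341 (other numbers up to 0.223, and 10 of 12 libraries best with their own). Same-numbered libraries were therefore set side by side as pairs, which the labels do not state. The main test, with its SE and adjusted p, fitted the group alone and did not use the pairs. Pairs entered the pair ratios, the replicate block and the permutation with same-numbered libraries moved together. Within a group all libraries differed by more than counting noise, the lowest chi-square per degree of freedom being 6.60. Intervals and floors cover counting error only.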

Additional observations from a re-analysis of the deposited data

Results flagged for a closer look

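Of 154 groups of 6 libraries, over 77 genes followed singly, 12 had 1 library far from the other 5 by Dixon's test, where chance gives about 1 in 20. Among the 5 genes this was Maf in TLCPlo/int replicate 1, at 1106 CPM against 889 in the next library, which also had the highest Il10. Tfh replicate 4 stood apart in 5 genes, with the highest Foxp3 (47.3 CPM, next 32.6), Il27ra (142, next 116), Il7r (96.3, next 52.4), Cry1 (16.6, next 12.02) and Cpa3 (2.55, next 0.717). It is also the Tfh library with the highest Il10, Prdm1 and Nfil3 and the fewest reads. TLCPlo/int replicate 6 had the highest Fcmr (188 CPM, next 86.7), Cd79b (206, next 101) and Maff (3.16, next 1.601). Il7r was highest in TLCPlo/int replicate 4 (191 CPM, next 143), Nr1d2 was lowest in TLCPlo/int replicate 3 (36.9, next 44.9), and Sdc1 was at 0 in Tfh replicate 2 (next 0.974).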

How the results depend on the processing

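Under 27 alternatives Il10, Prdm1 and Ahr stayed called and higher in TLCPlo/int cells. Leaving out 1 library gave 4.69 to 5.02 for Il10, 2.54 to 2.78 for Prdm1, -0.14 to -0.03 for Maf, 1.53 to 1.75 for Ahr and 0.11 to 0.26 for Nfil3, with 3 of the 5 called each time and 3489 to 4008 genes called in all. With the replicate block the values were 4.87, 2.67, -0.07, 1.64 and 0.20, and the block called 4453 genes. Among the named genes the block changed only the calls of Hsp90aa1 (adjusted p = 0.0431) and Csf1r (0.00182), both then called. Maf was at 0.11 with totals alone and at 0.22 with either TPM pseudocount. Nfil3 was called on TPM values (0.45 and 0.48 with pseudocounts of 1 and 0.1) and was at -0.09 in replicates 4 to 6, and the cause was not tested. With TPM pseudocounts of 1 and 0.1, Ptges3 was at 0.0781 and 0.0794, Jak1 at 0.108 and 0.108, Tgfbr2 at 0.0111 and 0.0113, Tigit at 0.0497 and 0.0498, Rassf5 at 0.0538 and 0.0542 and Nr1d2 at 0.0291 and 0.0317, all negative in the counts. Lyz2 was at -0.0759 in replicates 4 to 6. Of 72 list genes followed singly, 44 kept direction and call under each alternative in which they were tested, though 14 of these 44 were left untested in 1 to 3 of the 27. DESeq2 called 4411 genes. The order by TPM was not run with gene lengths, which the count tables used here do not list. Few reads limit Il10 and Ahr in Tfh cells.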

Other observations

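Nfil3 is tied to the circadian clock and competes with the PAR bZIP factors DBP, TEF and HLF for the same DNA elements, so this group was read as well. Of 12 clock and PAR bZIP genes 11 were tested, and 2 rose, 2 fell and 7 did not pass, with a median log2 fold change of -0.03, beside 33.2% called and a median of -0.004 over all genes. Cry1, a repressor arm gene of the clock, was at 16.0 to 20.6 against 10.5 to 16.6 CPM and rose by 0.59 (edgeR adjusted p = 0.00216). Hlf was low, at 1.02 to 3.52 against 0.239 to 1.36 CPM, and rose by 1.18 (adjusted p = 0.0324), a call lost without TLCPlo/int replicate 1, 5 or 6 or Tfh replicate 1, 2 or 3 (adjusted p = 0.0575 to 0.0873). Arntl, which encodes BMAL1, fell by 0.34 on the log2 scale (adjusted p = 0.00723), a call lost with totals alone (adjusted p = 0.267). Nr1d2 was at -0.27 (adjusted p = 0.049) and did not pass in DESeq2 (adjusted p = 0.0727), without any of TLCPlo/int replicates 1, 3, 4, 5 and 6, or without any of Tfh replicates 1 to 4. Sampling time of day is not given in the labels.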
